A study of Mus musculus with 40 samples.

Results

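Kidneys given human mesenchymal stromal cells (MSC) of umbilical cord were set against kidneys given MSC of bone marrow, both after ischaemia-reperfusion injury (IRI). The 8 libraries were chosen by the cell name in their labels, 4 UC-MSC and 4 BM-MSC, out of 40 in the series. All came from C57bl/6-wt mouse kidney and carry IRI as treatment. The other libraries of the same count table are used as values beside them: 4 AKI libraries, injured with no MSC named and labelled 6 h after reperfusion, and 4 Control libraries with no treatment named. The protocol places the injection of MSC directly after reperfusion, in the same anaesthesia, and the cells were grown in low-glucose DMEM with FBS. The labels used here give no harvest time, cell dose, route or donor for the UC-MSC and BM-MSC libraries. A difference in any of these between the groups cannot be told apart from the source of the cells. Nothing states that the libraries of a group are separate animals, and p-values then measure only the spread between these libraries. The series asks how the 2 kinds of human MSC act on IRI-induced acute kidney injury, and its title names connexin 43, mitochondrial transfer and PGC1a.

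MSC are stromal cells that adhere to plastic in culture and secrete growth factors, immune mediators and vesicles, and both cord and marrow are common sources for cell therapy. In ischaemia-reperfusion of the kidney the proximal tubule and the thick ascending limb are the segments hit hardest. Surviving tubule cells lose their transporters, switch on injury and stress genes, and later divide to refill the tubule, while neutrophils and then macrophages enter the tissue.

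Each library held from 12949029 to 15967232 counts in UC-MSC kidneys, from 15397188 to 18181369 in BM-MSC kidneys, from 15157068 to 18475869 in AKI kidneys and from 14938484 to 16338711 in Control kidneys. Values below are CPM, counts scaled to the same library total, after TMM scaling unless another scale is named. Within the groups, the Spearman correlation of libraries over genes was 0.948 to 0.985 for UC-MSC, 0.970 to 0.991 for BM-MSC, 0.919 to 0.983 for AKI and 0.990 to 0.994 for Control. Gene names whose counts could not be trusted, among them most mitochondrial mRNAs, were left out; they had held 10.3 to 14.0% of counts in 7 of the 8 MSC libraries and 23.3% in UC-MSC 4. UC-MSC 4, BM-MSC 4 and AKI 1 stood apart from their groups in the gene lists described below, and UC-MSC 1 did so for cell cycle genes. The kidney identity of the libraries held: Slc34a1, the phosphate transporter of the proximal tubule, had 1493, 799, 564 and 2725 CPM in UC-MSC kidneys, against 3506, 4067, 2908 and 1371 CPM in BM-MSC kidneys. Its ranges overlapped, and its difference did not pass the test (log2 fold change -1.09, SE 0.47, edgeR adjusted p = 0.11), but it did without UC-MSC 4 (adjusted p = 0.0198), without BM-MSC 4 (0.0496) and without AKI 1 (0.0479).

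Of 16623 genes tested, 3402 (20.5%) differed between UC-MSC and BM-MSC kidneys at a Benjamini-Hochberg adjusted p under 0.05 in edgeR's quasi-likelihood test, 1668 (10.0%) higher and 1734 (10.4%) lower in UC-MSC kidneys. A change of at least 2-fold was reached by 1674 called genes (10.1%), by 783 of the higher genes (4.71% of those tested) and by 891 of the lower ones (5.36%). Stress and injury genes were on the higher side, and cell cycle, tubule transport, interferon-stimulated and cholesterol synthesis genes were on the lower side. Of 7 neutrophil genes tested 2 were higher, and the summed level of the 7 overlapped between the groups. The 4 UC-MSC values lay wholly above the 4 BM-MSC values for 2055 genes (12.4%) and wholly below them for 2240 (13.5%). The median log2 fold change of all genes tested was 0.01. The count rests on the spread of single libraries: it was 1947 without UC-MSC 3, 2084 without BM-MSC 1, 2214 without BM-MSC 2, 2257 without BM-MSC 3 and 5390 without AKI 1. AKI 1 is in neither group and enters through the shared fit. Without it, 17002 genes passed the filter on low counts. That number does not set AKI 1 apart: without AKI 2, 16964 genes passed and 3400 were called.

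**Figure D1:**
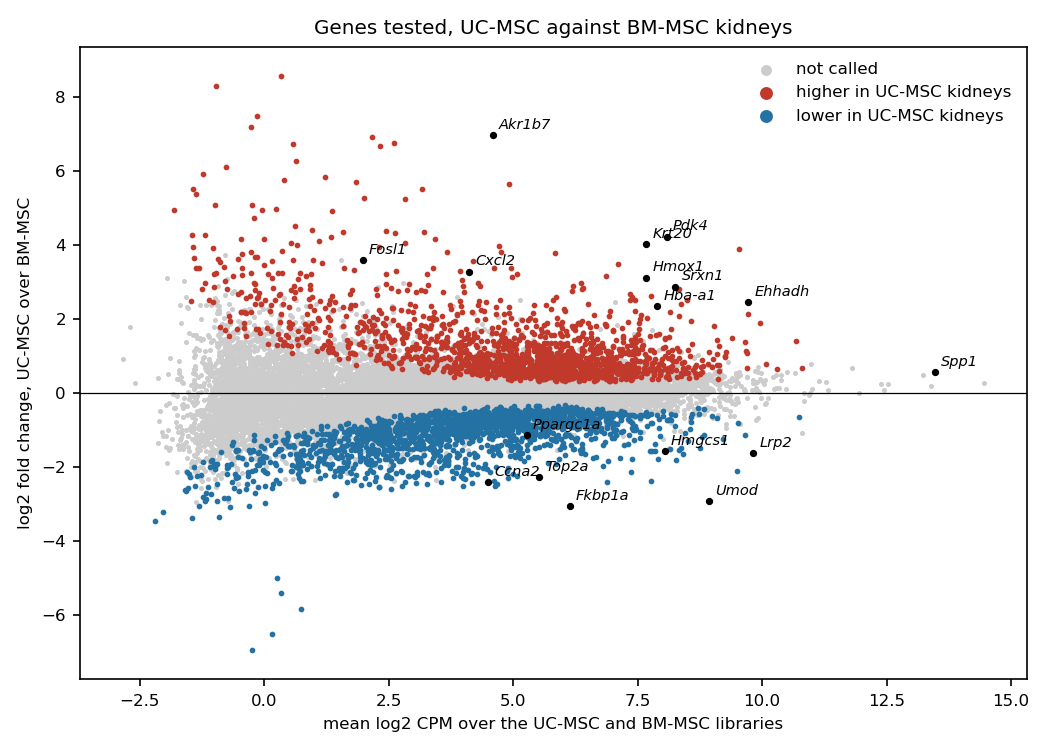
Each point is 1 of 16623 genes, with its mean log2 CPM over the 8 libraries on the x axis and its log2 fold change, UC-MSC over BM-MSC, on the y axis. Red and blue points passed an adjusted p of 0.05, and labelled genes are black. Higher and lower calls were close in number (1668 and 1734), and Akr1b7 (log2 fold change 6.97) and Fkbp1a (-3.04) stand far out.

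**Figure D2:**
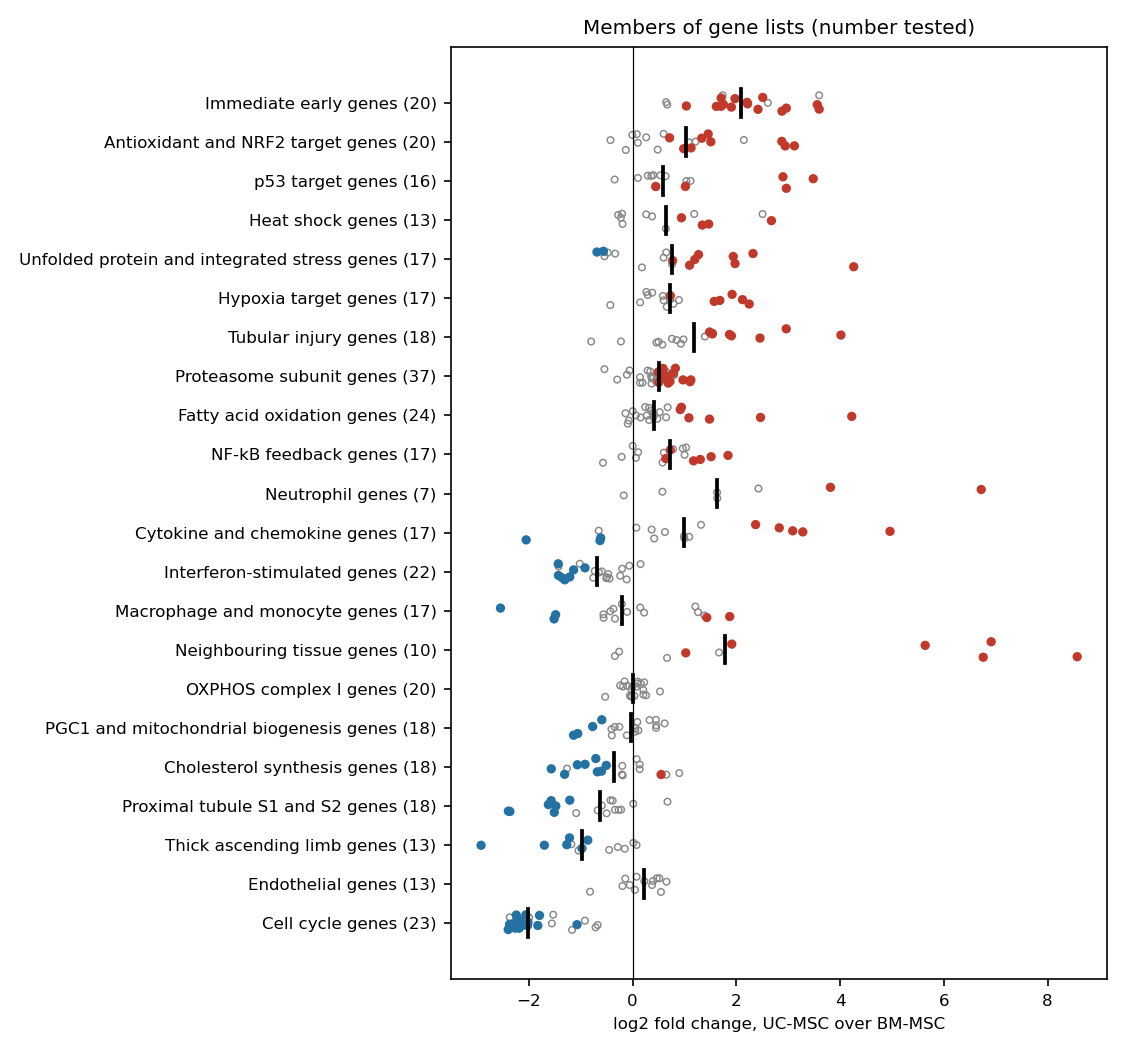
Members of 22 gene lists by their log2 fold change, UC-MSC over BM-MSC, with filled points for members past an adjusted p of 0.05, open points for the others and a black bar at the median. Immediate early genes have a median of 2.09, cell cycle genes of -2.02 and complex I genes of 0.02.

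Tubular injury genes were higher in UC-MSC kidneys: 7 of 18 tested rose, none fell, and the median log2 fold change was 1.19. Krt20, a keratin that injured tubule cells gain, had 637, 975, 1254 and 746 CPM in UC-MSC kidneys, against 55.1, 23.9, 35.01 and 109 CPM in BM-MSC kidneys (log2 fold change 4.02, SE 0.50, edgeR adjusted p = 0.00028). All 4 UC-MSC values stood above all 4 BM-MSC values, as was required for the largest rises named here and as held for 12.4% of all genes tested. In the other groups Krt20 averaged 146 ± 48.4 CPM in AKI kidneys and 8.81 ± 4.81 CPM in Control kidneys (SD, n = 4 each). Sox9, a transcription factor of regenerating tubule cells, had 31.6, 64.6, 62.8 and 76.7 CPM in UC-MSC kidneys, against 5.51, 3.68, 7.003 and 13.9 CPM in BM-MSC kidneys (log2 fold change 2.96, SE 0.47, edgeR adjusted p = 0.0011), again without overlap. Plaur, the urokinase receptor, had 123, 96.2, 102 and 102 CPM in UC-MSC kidneys, against 20.3, 14.8, 24.2 and 53.4 CPM in BM-MSC kidneys. Krt8, a keratin of simple epithelia, averaged 1164 ± 414 CPM in UC-MSC kidneys and 416 ± 120.3 CPM in BM-MSC kidneys (SD, n = 4 each). Both rose, by log2 fold changes of 1.91 (edgeR adjusted p = 0.0019) and 1.48 (adjusted p = 0.0015). Against Control kidneys, 18 of the 18 were higher in UC-MSC kidneys (20.4% of all genes were) and 14 in BM-MSC kidneys (6.56% of all genes).

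Not every injury gene was apart. Spp1, osteopontin, was the most abundant injury gene and had 11443, 23603, 17158 and 6672 CPM in UC-MSC kidneys, against 10096, 6680.1, 11334 and 11446 CPM in BM-MSC kidneys (log2 fold change 0.57, SE 0.51, edgeR adjusted p = 0.45). Clu, clusterin, had 2436, 1784, 2093 and 862 CPM in UC-MSC kidneys, against 1938, 1407, 2251 and 2789 CPM in BM-MSC kidneys (log2 fold change -0.22, SE 0.34, edgeR adjusted p = 0.68). The ranges of both genes overlapped, with UC-MSC 4 the lowest of the 8 libraries for each. The list held 5 to 12 rises when 1 library was left out, with 11 without UC-MSC 4, 12 without BM-MSC 4 and 12 without AKI 1. Havcr1 and Lcn2, the common injury markers KIM-1 and NGAL, are not reported, because their counts differ between the deposited tables. In whole tissue, fewer cells of a type and less RNA per cell cannot be told apart.

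Immediate early genes, which switch on within minutes of a stimulus, were higher in UC-MSC kidneys: 15 of 20 rose, none fell and all 20 fold changes were positive, with a median of 2.09. Fosl1, a Fos-family subunit of the AP-1 transcription factor, had 13.2, 11.5, 12.7 and 20.1 CPM in UC-MSC kidneys, against 0.956, 0.603, 0.565 and 2.52 CPM in BM-MSC kidneys (log2 fold change 3.598, SE 0.52, edgeR adjusted p = 0.00066). Nr4a1, an orphan nuclear receptor, had 28.2, 41.9, 99.7 and 103 CPM in UC-MSC kidneys, against 4.61, 4.22, 5.196 and 8.96 CPM in BM-MSC kidneys (log2 fold change 3.56, SE 0.87, edgeR adjusted p = 0.0097). Btg2, an antiproliferative early gene, had 88.8, 186, 184 and 583 CPM in UC-MSC kidneys, against 31.8, 27.5, 29.3 and 44.7 CPM in BM-MSC kidneys, with UC-MSC 4 the highest (log2 fold change 2.96, SE 0.57, edgeR adjusted p = 0.0029). For these genes every UC-MSC library was above every BM-MSC library. Jun and Fos, the founding AP-1 subunits, were also apart in range, at 199.99 ± 46.4 and 39.5 ± 20.6 CPM in UC-MSC kidneys and 59.98 ± 17.3 and 6.45 ± 3.28 CPM in BM-MSC kidneys (SD, n = 4 each). Their adjusted p was 0.057 for Jun and 0.09 for Fos in edgeR's test. AKI 1 was far above the other AKI libraries for both, and without it the adjusted p was 5.6e-05 for Jun and 0.0022 for Fos. Against Control, 17 of 20 members were higher in UC-MSC kidneys (20.4% of all genes were) and 3 in BM-MSC kidneys (6.56% of all genes).

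Targets of NRF2, the transcription factor of the antioxidant response, followed: 9 of 20 tested rose and none fell, with a median of 1.04. Hmox1, haem oxygenase 1, had 459, 716, 724 and 625 CPM in UC-MSC kidneys, against 55.9, 43.7, 68.2 and 123 CPM in BM-MSC kidneys (log2 fold change 3.12, SE 0.33, edgeR adjusted p = 0.00012). Srxn1, sulfiredoxin, had 396, 953, 1032 and 1065 CPM in UC-MSC kidneys, against 104, 100.2, 132 and 133 CPM in BM-MSC kidneys (log2 fold change 2.88, SE 0.28, edgeR adjusted p = 0.0001). Pgd, which makes NADPH in the pentose phosphate pathway, averaged 485 ± 155 CPM in UC-MSC kidneys and 170.4 ± 20.6 CPM in BM-MSC kidneys (SD, n = 4 each) (log2 fold change 1.51, SE 0.33, edgeR adjusted p = 0.0055). None of these 3 genes overlapped between the groups. In the other groups Hmox1 averaged 739 ± 282 CPM in AKI kidneys and 33.3 ± 3.6000 CPM in Control kidneys, and Srxn1 averaged 660.4 ± 154 CPM in AKI kidneys and 86.4 ± 7.41 CPM in Control kidneys (SD, n = 4 each). Nfe2l2, which encodes NRF2 itself, averaged 197 ± 48.4 CPM in UC-MSC kidneys and 120.2 ± 20.3 CPM in BM-MSC kidneys (log2 fold change 0.71, SE 0.19, edgeR adjusted p = 0.016). Without 1 library its adjusted p could miss the threshold, at 0.0511 without UC-MSC 2 and 0.0582 without BM-MSC 2. Sod1, Sod2 and Prdx1 are not reported, for the same reason as Havcr1.

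Of 16 targets of p53, 5 rose (Cdkn1a, Gdf15, Zmat3, Aen and Btg2) and none fell. With 1 library left out, 4 to 11 rose, the most without AKI 1. Cdkn1a, the cell cycle inhibitor p21, had 244, 314, 356 and 1187 CPM in UC-MSC kidneys, against 38.4, 31.8, 49.6 and 67.96 CPM in BM-MSC kidneys (log2 fold change 3.48, SE 0.49, edgeR adjusted p = 0.00059). UC-MSC 4 was far above the other 3, and all 4 were above the BM-MSC libraries. Gdf15, a stress-induced hormone of the TGF-beta family, had 93.3, 192, 192 and 399.7 CPM in UC-MSC kidneys, against 26.8, 15.9, 38.2 and 36.4 CPM in BM-MSC kidneys (log2 fold change 2.900, SE 0.41, edgeR adjusted p = 0.0006).

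Of 17 genes of the unfolded protein and integrated stress responses, 8 rose and 2 fell, Hsp90b1 and Pdia4. The rises were 47.1% of the list, against 10.0% of all genes tested, and the falls 11.8%, near the 10.4% of all genes. The falls were 4 without UC-MSC 1 and 1 without UC-MSC 2, 3 or 4, BM-MSC 1 or BM-MSC 3. Ppp1r15a, the stress-induced phosphatase subunit GADD34, had 60.9, 46.4, 76.5 and 90.99 CPM in UC-MSC kidneys, against 11.3, 13.6, 11.97 and 17.96 CPM in BM-MSC kidneys (log2 fold change 2.32, SE 0.29, edgeR adjusted p = 0.00028). Trib3 and Chac1, which act downstream of ATF4, averaged 12.8 ± 4.77 and 8.68 ± 2.38 CPM in UC-MSC kidneys and 3.23 ± 2.14 and 2.24 ± 1.196 CPM in BM-MSC kidneys (SD, n = 4 each). Both rose (edgeR adjusted p = 0.011 for Trib3 and 0.0033 for Chac1). Atf3, a stress-induced transcription factor of the same pathway, had 51.4, 22.8, 71.2 and 86.8 CPM in UC-MSC kidneys, against 8.21, 5.73, 8.19 and 9.28 CPM in BM-MSC kidneys (log2 fold change 2.88, SE 0.74, edgeR adjusted p = 0.013). The AKI libraries averaged 91.7 ± 138 CPM for Atf3 (SD, n = 4), a mean set by 1 of them.

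Heat shock genes rose in 4 of 13 cases (Hspb1, Hspb8, Bag3 and Cryab) and fell in none. Over the 16 fits that left out 1 library, 3 to 7 rose, the most without AKI 1. Cryab lost its call in 13 of these fits. Hspb1, the small heat shock protein HSP27, had 313, 297, 671 and 458 CPM in UC-MSC kidneys, against 57.1, 44.6, 69.5 and 100.5 CPM in BM-MSC kidneys (log2 fold change 2.68, SE 0.31, edgeR adjusted p = 0.00019). Bag3, a co-chaperone of stressed cells, averaged 98.4 ± 21.7 CPM in UC-MSC kidneys and 38.8 ± 2.72 CPM in BM-MSC kidneys (SD, n = 4 each) (log2 fold change 1.34, SE 0.29, edgeR adjusted p = 0.0055). Hypoxia targets rose in 6 of 17 cases and fell in none. With 1 library left out, 4 to 10 rose, the most without AKI 1. Slc2a1, the glucose transporter GLUT1, had 345, 338, 365 and 210.2 CPM in UC-MSC kidneys, against 76.96, 65.4, 74.6 and 116 CPM in BM-MSC kidneys (log2 fold change 1.92, SE 0.20, edgeR adjusted p = 0.00012), which was also above the AKI mean of 97.2 ± 13.2 CPM. Adm, the vasodilator adrenomedullin, had 48.6, 40.9, 66.1 and 28.6 CPM in UC-MSC kidneys, against 8.72, 7.54, 7.96 and 14.5 CPM in BM-MSC kidneys (log2 fold change 2.25, SE 0.27, edgeR adjusted p = 0.00022). Glycolysis genes rose in 7 of 19 cases and fell in 1, Pfkm; the rises were 4 without UC-MSC 3 and 3 without BM-MSC 1 or BM-MSC 2, and the falls 4 without UC-MSC 4. Pfkfb3, an activator of glycolysis, averaged 73.6 ± 15.98 CPM in UC-MSC kidneys and 32.7 ± 7.56 CPM in BM-MSC kidneys (SD, n = 4 each) (log2 fold change 1.17, SE 0.28, edgeR adjusted p = 0.0089). Each of these 5 genes was higher in every UC-MSC library than in every BM-MSC library.

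Proteasome subunits made a broad but small shift: 15 of 37 rose, none fell, and 33 fold changes were positive, with a median of 0.50. Psmd11 and Psmd8, lid subunits of the regulatory particle, changed most, at 187 ± 43.02 and 337 ± 70.1 CPM in UC-MSC kidneys and 85.7 ± 9.52 and 156 ± 14.1 CPM in BM-MSC kidneys (SD, n = 4 each). Their adjusted p was 0.0011 for Psmd11 and 0.0019 for Psmd8 in edgeR's test. The number of rises was 9 without UC-MSC 2 or without BM-MSC 2, and 26 without AKI 1.

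**Figure D3:**
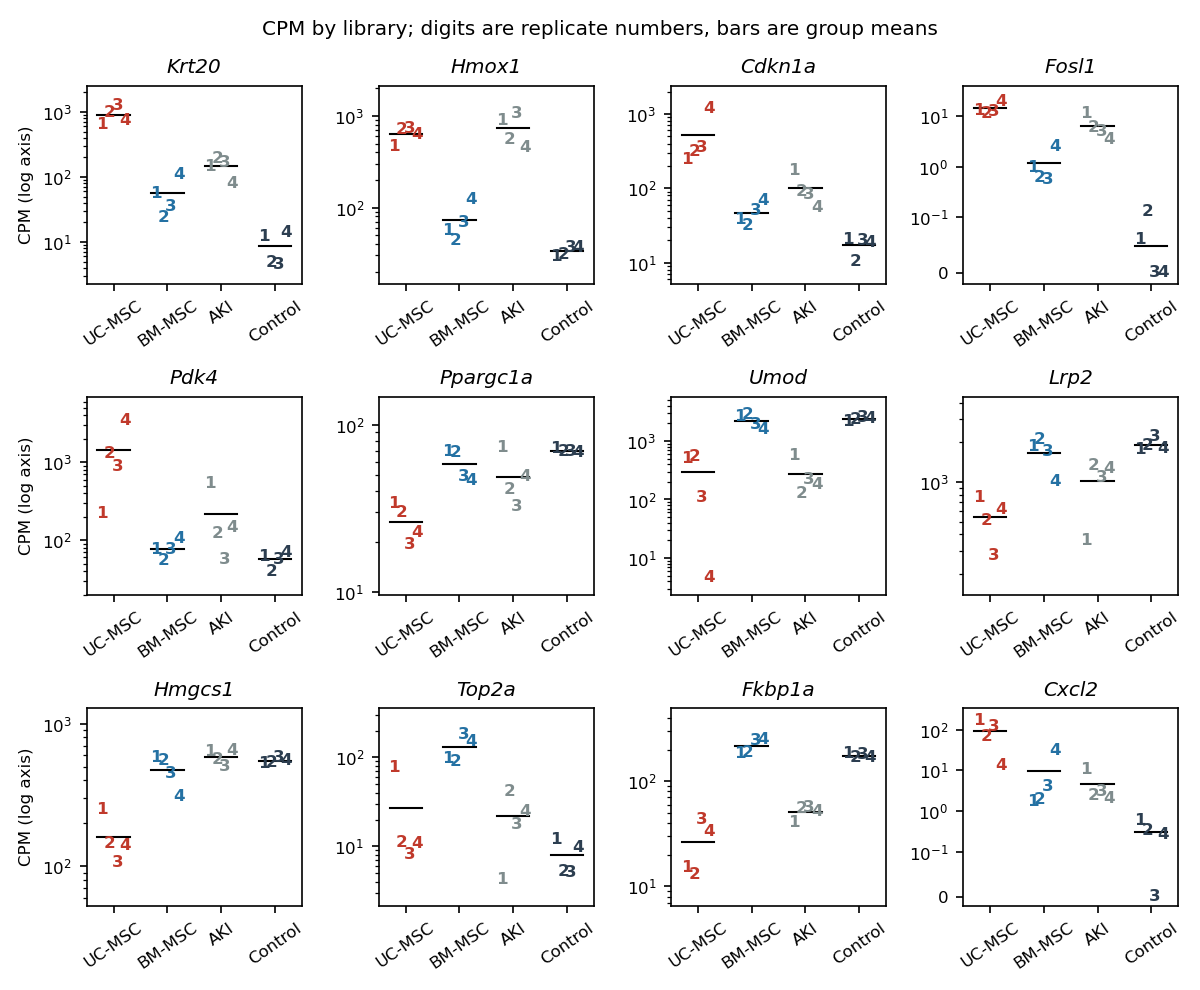
CPM of 12 genes in each library on a log axis (linear near 0 for Fosl1 and Cxcl2), with digits for replicate numbers and bars for group means. Krt20, Hmox1, Cdkn1a, Fosl1 and Pdk4 are higher in every UC-MSC library than in every BM-MSC library, and Ppargc1a, Umod, Lrp2, Hmgcs1, Top2a and Fkbp1a are lower, while BM-MSC 4 overlaps UC-MSC 4 for Cxcl2.

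Cell cycle genes went the other way and were high in BM-MSC kidneys. All 23 tested had negative fold changes, UC-MSC over BM-MSC, with a median of -2.02, and 15 fell in UC-MSC kidneys while none rose. Ccnb2, cyclin B2 of the G2 to M transition, had 30.4, 6.69, 3.58 and 9.44 CPM in UC-MSC kidneys, against 54.9, 64.2, 84.8 and 56.6 CPM in BM-MSC kidneys (log2 fold change -2.37, SE 0.59, edgeR adjusted p = 0.011). Top2a, the topoisomerase that untangles replicated DNA, had 77.4, 11.003, 8.17 and 10.9 CPM in UC-MSC kidneys, against 97.5, 90.4, 179.6 and 151 CPM in BM-MSC kidneys (log2 fold change -2.26, SE 0.69, edgeR adjusted p = 0.029). In both genes UC-MSC 1 was the highest of its group, but it stayed below all BM-MSC libraries. Ccna2, cyclin A2, had 36.7, 5.08, 3.77 and 5.01 CPM in UC-MSC kidneys, against 47.6, 47.3, 100.5 and 73.6 CPM in BM-MSC kidneys (log2 fold change -2.397, SE 0.65, edgeR adjusted p = 0.017). Outside the list, further genes of dividing cells were among the 15 largest falls. Shcbp1, a midbody protein, averaged 2.86 ± 3.25 CPM in UC-MSC kidneys and 17.4 ± 7.22 CPM in BM-MSC kidneys. Knl1, a kinetochore scaffold, averaged 2.41 ± 2.63 CPM in UC-MSC kidneys and 14.3 ± 4.96 CPM in BM-MSC kidneys. Kif4, a chromosome kinesin, averaged 4.41 ± 5.43 CPM in UC-MSC kidneys and 24.1 ± 7.06 CPM in BM-MSC kidneys (SD, n = 4 each). Their log2 fold changes were -2.58, -2.54 and -2.43, with adjusted p of 0.008, 0.0081 and 0.012 in edgeR's test.

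The test was not passed by all members. Pcna, the DNA polymerase clamp, had 78.8, 47.9, 54.4 and 48.4 CPM in UC-MSC kidneys, against 65.3, 62.1, 135 and 103 CPM in BM-MSC kidneys (log2 fold change -0.67, SE 0.32, edgeR adjusted p = 0.15). Rrm2, a subunit of ribonucleotide reductase, had 93.1, 30.05, 19.3 and 20.03 CPM in UC-MSC kidneys, against 69.4, 67.4, 197 and 137 CPM in BM-MSC kidneys (log2 fold change -1.53, SE 0.61, edgeR adjusted p = 0.086). The ranges of both overlapped, since UC-MSC 1 stood among the BM-MSC libraries; without UC-MSC 1 the adjusted p of Rrm2 was 0.0108, and without AKI 1 it was 0.0247 for Rrm2 and 0.0411 for Pcna. Against Control kidneys, 9 of 23 cell cycle genes were higher in UC-MSC kidneys (20.4% of all genes were) and 22 of 23 in BM-MSC kidneys (6.56% of all genes). The number of falls from UC-MSC over BM-MSC depended on single libraries: it was 3 without UC-MSC 2, 3 without UC-MSC 3, 5 without UC-MSC 4, 5 without BM-MSC 3 and 23 without AKI 1. Without UC-MSC 2 the adjusted p was 0.0537 for Ccna2 and 0.0848 for Top2a, and without UC-MSC 3 it was 0.0523 for Ccna2 and 0.0845 for Top2a; for Top2a it was 0.0731 without UC-MSC 4 and 0.0720 without BM-MSC 3. Mitotic genes are known for promoters with CCAAT boxes, which bind the factor NF-Y, and CHR elements, which bind the DREAM and MuvB complexes; the list also holds replication genes. The promoters of 4 members that fell together are shown. CCAAT stood on either strand within 250 bases before the start in 17 of the 19 list members that RefSeq matched, against 37.5% of 27025 genes, and the CHR motif TTTGAA in 6 of 19, against 18.3%. Of the 12 matched members that fell, 10 held CCAAT and 5 held TTTGAA. Because mitotic genes are known for these motifs, the excess over all genes comes with the choice of list. It says nothing about the difference between the kidneys. Motifs were also searched in the immediate early, NRF2 and clock lists and are not shown. A match of letters is a description, not a bound site. The RefSeq sequences below (build GRCm38.p6) are the 150 bases just before each start, on the gene's strand, with CCAAT and TTTGAA on either strand in capitals.
Ccnb2, chr9:70421555-70421704, minus strand: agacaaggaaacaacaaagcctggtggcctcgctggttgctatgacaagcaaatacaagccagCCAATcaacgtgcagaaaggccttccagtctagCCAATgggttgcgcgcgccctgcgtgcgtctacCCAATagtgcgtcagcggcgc
Cdc20, chr4:118437344-118437493, minus strand: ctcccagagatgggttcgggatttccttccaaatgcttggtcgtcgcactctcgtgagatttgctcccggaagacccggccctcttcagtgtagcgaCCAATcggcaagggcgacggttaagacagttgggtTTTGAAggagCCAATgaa
Top2a, chr11:99024190-99024339, minus strand: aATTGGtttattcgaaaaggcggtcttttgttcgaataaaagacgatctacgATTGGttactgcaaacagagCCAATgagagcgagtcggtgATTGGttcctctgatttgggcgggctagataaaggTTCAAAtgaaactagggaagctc
Plk1, chr7:122159285-122159434, plus strand: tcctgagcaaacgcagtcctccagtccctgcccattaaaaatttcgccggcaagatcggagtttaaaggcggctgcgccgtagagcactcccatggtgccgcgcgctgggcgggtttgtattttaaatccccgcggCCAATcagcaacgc

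Genes of the first proximal segments and of the thick ascending limb were lower in UC-MSC kidneys. Of 18 genes of the first 2 proximal segments 7 fell and none rose (median -0.63), and of 13 genes of the thick ascending limb 6 fell and none rose (median -0.98). The 14 genes of the distal and connecting tubule were mixed: 4 fell (Trpv5, Klhl3, Tmem52b and Emx1) and none rose, but 7 fold changes were positive and 7 negative, with a median of 0.02. The number of falls in the distal and connecting tubule was 1 without any 1 of UC-MSC 2, UC-MSC 3, BM-MSC 1, BM-MSC 2 or BM-MSC 3. Umod, uromodulin of the thick ascending limb, had 507, 552, 108 and 4.72 CPM in UC-MSC kidneys, against 2584, 2809.7, 1895 and 1579 CPM in BM-MSC kidneys (log2 fold change -2.92, SE 0.83, edgeR adjusted p = 0.022). It was lower in every UC-MSC library than in any BM-MSC library, and lowest in UC-MSC 4, while Control kidneys averaged 2336 ± 145 CPM (SD, n = 4). Its adjusted p was 0.0694 without UC-MSC 3. Cldn10 and Cldn19, claudins of the same segment, averaged 53.2 ± 19.9 and 21.5 ± 3.56 CPM in UC-MSC kidneys and 124 ± 23.8 and 51.96 ± 3.84 CPM in BM-MSC kidneys (SD, n = 4 each). Sostdc1, a secreted BMP antagonist, averaged 17.99 ± 11.9 CPM in UC-MSC kidneys and 58.8 ± 2.85 CPM in BM-MSC kidneys. All 3 fell (edgeR adjusted p = 0.0035 for Cldn10, 0.013 for Cldn19 and 0.0061 for Sostdc1). Slc12a1, the furosemide-sensitive transporter, had 335, 188, 97.3 and 344 CPM in UC-MSC kidneys, against 656, 749, 354 and 424 CPM in BM-MSC kidneys (log2 fold change -1.18, SE 0.53, edgeR adjusted p = 0.12). It passed the test without AKI 1 (adjusted p = 0.0186).

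In the proximal tubule Lrp2 and Cubn, the endocytic receptors megalin and cubilin, fell together. Lrp2 had 759, 509, 279 and 616 CPM in UC-MSC kidneys, against 1868, 2094, 1702 and 999 CPM in BM-MSC kidneys (log2 fold change -1.62, SE 0.37, edgeR adjusted p = 0.0067). Cubn had 182, 96.9, 58.7 and 199 CPM in UC-MSC kidneys, against 456, 473, 403 and 259.99 CPM in BM-MSC kidneys (log2 fold change -1.57, SE 0.34, edgeR adjusted p = 0.0052). No UC-MSC value reached a BM-MSC value for either gene. Slc16a9, a carnitine transporter, had 54.99, 43.5, 26.7 and 28.1 CPM in UC-MSC kidneys, against 137, 166, 113 and 74.9 CPM in BM-MSC kidneys (log2 fold change -1.68, SE 0.25, edgeR adjusted p = 0.00074). Among the 15 largest falls was Nat8f6, an N-acetyltransferase family member, at 12.1 ± 8.66 CPM in UC-MSC kidneys and 68.7 ± 35.8 CPM in BM-MSC kidneys, and another was Hsd3b9, a hydroxysteroid dehydrogenase family member, at 7.67 ± 6.44 CPM in UC-MSC kidneys and 43.7 ± 14.3 CPM in BM-MSC kidneys (SD, n = 4 each). Their log2 fold changes were -2.497 and -2.496 (edgeR adjusted p = 0.0039 for Nat8f6 and 0.0019 for Hsd3b9). Both belong to gene families with close copies. Slc4a1, the chloride-bicarbonate exchanger of intercalated cells and red cells, had 18.5, 7.21, 3.14 and 4.62 CPM in UC-MSC kidneys, against 39.9, 41.6, 30.1 and 23.2 CPM in BM-MSC kidneys (log2 fold change -1.995, SE 0.45, edgeR adjusted p = 0.0067).

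The last proximal segment gave another picture. Of its 14 genes 2 fell, Slc16a9 and Slc7a12, and none rose. That share of falls, 14.3%, was near the 10.4% of all genes tested. The number of falls was 9 without UC-MSC 4, 5 without BM-MSC 4 or AKI 1, and 1 without UC-MSC 2, UC-MSC 3 or BM-MSC 1. UC-MSC 4 stood apart: its summed level of the list was 9830 CPM, against 1962 to 2957 CPM in the other 3 UC-MSC kidneys and 2458 to 6057 CPM in BM-MSC kidneys. Egf, made in the thick ascending and distal tubule, had 251, 93.1, 46.9 and 534 CPM in UC-MSC kidneys, against 323, 515, 236 and 191 CPM in BM-MSC kidneys (log2 fold change -0.45, SE 0.84, edgeR adjusted p = 0.74), again with UC-MSC 4 the highest. In edgeR's test 0 of 13 endothelial genes and 0 of 12 smooth muscle genes changed. At an unadjusted p under 0.05 the numbers were 1 and 2, and DESeq2 called 0 of both. Without AKI 1, 2 endothelial genes rose and 1 fell, and without BM-MSC 4, 3 smooth muscle genes rose. Pax8, a transcription factor of the whole nephron, rose, with 125, 172, 248 and 131 CPM in UC-MSC kidneys, against 72.4, 78.95, 66.5 and 69.1 CPM in BM-MSC kidneys (log2 fold change 1.23, SE 0.18, edgeR adjusted p = 0.00079). It was the only call among 17 genes of WNT signalling and nephron development, a share of 5.88%, below the 10.0% of all genes tested. Of the 17 fold changes 12 were negative, with a median of -0.19.

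PGC1a, named in the series title, is encoded by Ppargc1a, a coactivator that drives mitochondrial biogenesis with the ERR nuclear receptors. Ppargc1a was lower in UC-MSC kidneys, with 33.9, 29.8, 19.3 and 22.7 CPM in UC-MSC kidneys, against 69.5, 68.3, 48.9 and 46.3 CPM in BM-MSC kidneys (log2 fold change -1.14, SE 0.23, edgeR adjusted p = 0.0039). The groups did not overlap, and the gene averaged 49.1 ± 17.6 CPM in AKI kidneys and 70.1 ± 1.66 CPM in Control kidneys (SD, n = 4 each). Esrra, which encodes ERR alpha, fell too, at 92.8 ± 17.95 CPM in UC-MSC kidneys and 158 ± 27.7 CPM in BM-MSC kidneys (log2 fold change -0.77, SE 0.18, edgeR adjusted p = 0.0082). Esrrg, which encodes ERR gamma, averaged 45.7 ± 7.34 CPM in UC-MSC kidneys and 68.9 ± 12.9 CPM in BM-MSC kidneys (log2 fold change -0.59, SE 0.18, edgeR adjusted p = 0.032). Tfb1m, a mitochondrial rRNA methyltransferase, averaged 3.39 ± 1.23 CPM in UC-MSC kidneys and 7.104 ± 0.8598 CPM in BM-MSC kidneys (log2 fold change -1.06, SE 0.29, edgeR adjusted p = 0.019). These 4 were the only calls among 18 genes of the list, and 2 of them remained without UC-MSC 3, where the adjusted p was 0.108 for Esrrg and 0.0612 for Tfb1m; for Esrrg it was also above 0.05 without UC-MSC 4 (0.0602), BM-MSC 1 (0.106), BM-MSC 2 (0.0900) or BM-MSC 3 (0.0508). For Tfb1m it was 0.0588 without UC-MSC 2. Tfam, the packaging factor of mitochondrial DNA, had 45.4, 53.9, 45.1 and 66.1 CPM in UC-MSC kidneys, against 55.9, 55.4, 63.4 and 52.4 CPM in BM-MSC kidneys (log2 fold change -0.11, SE 0.15, edgeR adjusted p = 0.63).

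Genes of the respiratory chain made few calls. Of 20 complex I genes 0 changed in edgeR's test, with a median of 0.02, 1 under an unadjusted p of 0.05 and 0 by DESeq2, and 1 fell without UC-MSC 4 or without AKI 1. Of 24 genes of complexes II to V 1 rose, Cycs, cytochrome c, at 432 ± 109.7 CPM in UC-MSC kidneys and 295 ± 35.9 CPM in BM-MSC kidneys (SD, n = 4 each, edgeR adjusted p = 0.039). Its adjusted p was above 0.05 in 11 of the 16 fits that left out 1 library, up to 0.116 without UC-MSC 2. Of 15 genes of the citric acid cycle 0 changed in edgeR's test, 1 was under an unadjusted p of 0.05 and 1 was called by DESeq2, and 2 fell without UC-MSC 4 or without BM-MSC 4. Atp5b, the catalytic beta subunit of ATP synthase, averaged 2693 ± 852 CPM in UC-MSC kidneys and 2559.9 ± 476 CPM in BM-MSC kidneys (log2 fold change 0.07, SE 0.23, edgeR adjusted p = 0.86), and UC-MSC 4 was the highest of the 8 libraries at 3954 CPM. The mitochondrial rRNAs took 0.385% ± 0.0908 of counts in UC-MSC kidneys and 0.201% ± 0.0486 in BM-MSC kidneys (SD, n = 4 each). The exact two-sided permutation p was 0.0571, where the smallest possible is 0.0286. The 3 mitochondrial mRNAs with matching counts took 0.482% ± 0.356 in UC-MSC kidneys and 0.358% ± 0.0841 in BM-MSC kidneys (exact permutation p = 0.686). Without UC-MSC 4 the difference turned to -0.0474 percentage points.

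Fatty acid oxidation genes rose in 6 of 24 cases and fell in none, with 21 positive fold changes. Pdk4, the kinase that blocks entry of pyruvate into the citric acid cycle, had 218, 1286, 888 and 3437 CPM in UC-MSC kidneys, against 74.9, 55.6, 76.6 and 104 CPM in BM-MSC kidneys (log2 fold change 4.23, SE 0.74, edgeR adjusted p = 0.0019). Ehhadh, a peroxisomal enzyme of fatty acid oxidation, had 391, 3425, 1929.8 and 3477 CPM in UC-MSC kidneys, against 556, 415, 383 and 314 CPM in BM-MSC kidneys (log2 fold change 2.47, SE 0.46, edgeR adjusted p = 0.0025). For Ehhadh UC-MSC 1 lay within the BM-MSC range and the other 3 UC-MSC libraries far above it. With 1 library left out, 5 to 12 genes of the list rose, the most without UC-MSC 1. Acsl1, which activates long-chain fatty acids, averaged 462 ± 218 CPM in UC-MSC kidneys and 165 ± 18.4 CPM in BM-MSC kidneys (log2 fold change 1.48, SE 0.28, edgeR adjusted p = 0.0029). Slc25a22, a mitochondrial glutamate carrier, had 25.7, 157, 107 and 975 CPM in UC-MSC kidneys, against 23.8, 19.9, 23.8 and 23.9 CPM in BM-MSC kidneys, with UC-MSC 4 the highest (log2 fold change 3.79, SE 0.72, edgeR adjusted p = 0.0029).

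Cholesterol synthesis genes fell in 8 of 18 cases and rose in 1, Msmo1. The number of falls was 5 without BM-MSC 2, and that of rises 2 without UC-MSC 1 and 3 without UC-MSC 4. Hmgcs1, which makes HMG-CoA for sterol synthesis, had 249, 145, 106 and 139 CPM in UC-MSC kidneys, against 579.7, 554, 451 and 308 CPM in BM-MSC kidneys (log2 fold change -1.57, SE 0.24, edgeR adjusted p = 0.00098). Cyp51, the lanosterol demethylase, had 104, 53.9, 39.8 and 114 CPM in UC-MSC kidneys, against 257, 239, 158 and 117 CPM in BM-MSC kidneys, with the ranges of the groups separate by a narrow margin (log2 fold change -1.31, SE 0.34, edgeR adjusted p = 0.014). Mvd and Sqle, which act before and after the formation of squalene, averaged 26.8 ± 6.91 and 43.01 ± 3.88 CPM in UC-MSC kidneys and 56.1 ± 11.1 and 81.2 ± 17.7 CPM in BM-MSC kidneys (SD, n = 4 each), with adjusted p of 0.0035 for Mvd and 0.0032 for Sqle in edgeR's test. Hmgcs1 in AKI and Control kidneys averaged 587 ± 68.1 and 545 ± 22.3 CPM, above the UC-MSC level.

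Immune genes split by kind. Neutrophil genes were high in 3 of 4 UC-MSC kidneys and in 1 BM-MSC kidney: the summed level of the 7 genes tested was 625, 384, 460 and 59.0 CPM in UC-MSC kidneys, 24.3, 17.4, 30.6 and 431 CPM in BM-MSC kidneys, 6.45 to 33.1 CPM in AKI kidneys and 3.90 to 6.20 CPM in Control kidneys. Of these genes 2 rose, and 7 did without BM-MSC 4. S100a8, a calcium-binding protein of neutrophils, had 149, 101, 121 and 14.9 CPM in UC-MSC kidneys, against 5.51, 3.92, 8.58 and 106 CPM in BM-MSC kidneys (log2 fold change 1.63, SE 0.90, edgeR adjusted p = 0.21). Its adjusted p was 0.00242 without BM-MSC 4. Retnlg, a resistin-like protein of neutrophils, had 136, 76.3, 106 and 11.3 CPM in UC-MSC kidneys, against 1.01, 1.03, 2.203 and 18.8 CPM in BM-MSC kidneys (log2 fold change 3.82, SE 1.00, edgeR adjusted p = 0.015). Ngp, a neutrophil granule protein, had 19.9, 22.5, 18.5 and 2.31 CPM in UC-MSC kidneys, against 0, 0, 0 and 0.513 CPM in BM-MSC kidneys. Since 3 BM-MSC libraries held no count, its fitted fold change is not given (edgeR adjusted p = 0.0019). The markers Ly6g, Camp, Elane and Mpo were too low to test.

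Cytokine and chemokine genes gave 5 rises (Ccl3, Cxcl1, Cxcl2, Cxcl5 and Csf3) and 3 falls (Ccl20, Cxcl16 and Cx3cl1) among 17. These were 29.4% and 17.6% of the list, beside 10.0% and 10.4% of all genes tested. The rises were 2 without UC-MSC 3 and 3 without BM-MSC 1, 2 or 3. The falls were 0 without UC-MSC 2 or BM-MSC 3 and 1 without UC-MSC 3, UC-MSC 4 or BM-MSC 1. Cxcl2, a neutrophil-attracting chemokine, had 169.8, 66.7, 121 and 13.3 CPM in UC-MSC kidneys, against 1.69, 1.87, 4.01 and 30.3 CPM in BM-MSC kidneys (log2 fold change 3.28, SE 0.91, edgeR adjusted p = 0.019). Its highest BM-MSC and lowest UC-MSC value were those of the libraries with high and low neutrophil genes, and the part of neutrophils in the difference was not tested. Without BM-MSC 1, 2 or 3 the adjusted p of Cxcl2 was 0.0553, 0.0548 and 0.0601. Ccl3, a macrophage-attracting chemokine, had 6.91, 3.67, 13.2 and 0.867 CPM in UC-MSC kidneys, against 0.169, 0.241, 0.452 and 1.96 CPM in BM-MSC kidneys (log2 fold change 3.09, SE 0.80, edgeR adjusted p = 0.014), with an adjusted p of 0.0674 without UC-MSC 3. Feedback genes of NF-kB rose in 6 of 17 cases and fell in none. With 1 library left out, 4 to 10 rose, the most without AKI 1. Cebpb, a transcription factor of acute inflammation, averaged 229.9 ± 78.5 CPM in UC-MSC kidneys and 64.2 ± 19.8 CPM in BM-MSC kidneys (log2 fold change 1.84, SE 0.28, edgeR adjusted p = 0.0009). Nfkbia, the inhibitor of NF-kB, averaged 108 ± 21.8 CPM in UC-MSC kidneys and 43.6 ± 11.96 CPM in BM-MSC kidneys (log2 fold change 1.31, SE 0.25, edgeR adjusted p = 0.0029). Stat3, which carries interleukin 6 signals, averaged 339.6 ± 95.5 CPM in UC-MSC kidneys and 150.4 ± 25.1 CPM in BM-MSC kidneys (log2 fold change 1.17, SE 0.19, edgeR adjusted p = 0.0013). Il6, Il1b and Ccl2 are not reported, because of differing counts, and Tnf was too low to test.

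Acute phase and complement genes rose in 5 of 17 cases (Saa2, Saa3, Hp, Orm1 and Lbp) and fell in 2, C3 and Cfi. The rises were 29.4% of the list, against 10.0% of all genes tested. The falls were 11.8%, near the 10.4% of all genes tested. Over the 16 fits that left out 1 library, 4 to 9 rose, the most without AKI 1. Saa2 lost its call in 11 of these fits. The falls were 1 without UC-MSC 2, UC-MSC 4, BM-MSC 1, BM-MSC 3, BM-MSC 4, AKI 2, 3 or 4 or any 1 Control library. Saa3, an acute phase apolipoprotein, had 101, 77.8, 327 and 32.9 CPM in UC-MSC kidneys, against 3.26, 4.101, 14.2 and 16.6 CPM in BM-MSC kidneys (log2 fold change 3.82, SE 0.67, edgeR adjusted p = 0.0019); it has close copies in the genome. Hp, haptoglobin, had 879, 477, 2759 and 366 CPM in UC-MSC kidneys, against 68.97, 86.7, 129 and 349.6 CPM in BM-MSC kidneys (log2 fold change 2.82, SE 0.61, edgeR adjusted p = 0.0054). UC-MSC 3 was the highest for both.

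Interferon-stimulated genes fell in 7 of 22 cases and rose in none, with 21 negative fold changes and a median of -0.69. Ifit3, an antiviral RNA-binding protein, had 33.99, 14.5, 18.1 and 11.6 CPM in UC-MSC kidneys, against 56.3, 45.5, 48.5 and 60.9 CPM in BM-MSC kidneys (log2 fold change -1.43, SE 0.26, edgeR adjusted p = 0.0025). Gbp3, a guanylate-binding protein, had 15.1, 7.21, 11.8 and 6.84 CPM in UC-MSC kidneys, against 30.8, 21.8, 22.9 and 26.1 CPM in BM-MSC kidneys (log2 fold change -1.31, SE 0.29, edgeR adjusted p = 0.0063). The number of falls was 5 to 11 when 1 library was left out, the most without AKI 1. Macrophage genes gave 2 rises (Cd68 and Cd163) and 3 falls (Adgre1, Cx3cr1 and Ccr2) among 17, shares of 11.8% and 17.6%, near the 10.0% and 10.4% of all genes tested. The rises were 5 without BM-MSC 4 and 1 without UC-MSC 2, UC-MSC 3 or BM-MSC 1, 2 or 3, and the falls 1 without UC-MSC 2. Ccr2 lost its call in 13 of the 16 fits that left out 1 library. Cx3cr1, the fractalkine receptor of resident macrophages, had 6.19, 0.772, 1.76 and 0.7703 CPM in UC-MSC kidneys, against 15.2, 11.9, 11.01 and 18.8 CPM in BM-MSC kidneys (log2 fold change -2.55, SE 0.61, edgeR adjusted p = 0.0091). Cd163, the haemoglobin scavenger receptor, had 28.9, 20.1, 39.1 and 9.92 CPM in UC-MSC kidneys, against 5.79, 4.705, 6.83 and 9.42 CPM in BM-MSC kidneys (log2 fold change 1.87, SE 0.37, edgeR adjusted p = 0.0033). The ranges of both genes were separate. The summed level of the macrophage list overlapped, at 297 to 796 CPM in UC-MSC kidneys and 448 to 825 CPM in BM-MSC kidneys.

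Genes of steroid-making adrenal cells held 5 of the 15 largest rises. Akr1b7, an aldo-keto reductase of adrenal cortex, had 19.1, 698, 1110.1 and 65.5 CPM in UC-MSC kidneys, against 4.22, 1.21, 2.94 and 6.53 CPM in BM-MSC kidneys (log2 fold change 6.97, SE 1.47, edgeR adjusted p = 0.0047). Star, the cholesterol importer of steroidogenic mitochondria, had 20.7, 329, 1046 and 46.6 CPM in UC-MSC kidneys, against 12.3, 4.89, 4.07 and 7.65 CPM in BM-MSC kidneys (log2 fold change 5.64, SE 1.61, edgeR adjusted p = 0.022). Cyp11a1, Cyp21a1 and Cyp11b1, enzymes of corticosteroid synthesis, also rose, by log2 fold changes of 6.68, 6.91 and 6.76 (edgeR adjusted p = 0.018, 0.014 and 0.019). UC-MSC 2 and UC-MSC 3 had the highest levels of these genes, and UC-MSC 1 and UC-MSC 4 had lower ones. Without UC-MSC 3 the adjusted p was 0.0761 for Star, 0.0668 for Cyp11a1, 0.0537 for Cyp21a1 and 0.0618 for Cyp11b1. It was also above 0.05 for Star without BM-MSC 1, 2 or 3 (0.0517, 0.0644 and 0.0650), for Cyp11a1 without BM-MSC 2 or 3 (0.0564 and 0.0548) and for Cyp11b1 without BM-MSC 2 or 3 (0.0577 and 0.0580). The list of neighbouring tissues, which holds adrenal, fat, muscle, liver and pancreas genes, gave 6 rises among 10 tested (fat genes Adipoq and Plin1 and 4 adrenal genes), with 2 rises without UC-MSC 3 and 3 without BM-MSC 2 or BM-MSC 3. Its summed level was 174, 670, 2055 and 163 CPM in UC-MSC kidneys, 61.4, 58.9, 99.6 and 78.4 CPM in BM-MSC kidneys, 224 to 720 CPM in AKI kidneys and 97.5 to 269 CPM in Control kidneys.

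Mrap, the accessory protein of melanocortin receptors in adrenal and fat cells, had 24.8, 33.97, 109 and 20.1 CPM in UC-MSC kidneys, against 1.58, 2.23, 2.03 and 3.36 CPM in BM-MSC kidneys (log2 fold change 4.35, SE 0.56, edgeR adjusted p = 0.00033). Lep, the fat cell hormone leptin, had 16.3, 14.7, 77.5 and 21.5 CPM in UC-MSC kidneys, against 1.24, 1.99, 2.203 and 2.33 CPM in BM-MSC kidneys (log2 fold change 4.06, SE 0.53, edgeR adjusted p = 0.00037). Both were highest in UC-MSC 3. The pancreatic enzyme gene Ctrb1, named after its values were seen, went the other way and was high in 1 BM-MSC kidney, with 0.822, 0.386, 0.566 and 0.193 CPM in UC-MSC kidneys, against 113, 4.16, 1.36 and 0.653 CPM in BM-MSC kidneys. Ins2 and Prss1 of pancreas and Ckm and Myh4 of muscle were too low to test. Erythrocyte and platelet genes rose in 4 of 8 cases, all of them globins. Hba-a1, an alpha globin, had 345, 289, 373 and 1515 CPM in UC-MSC kidneys, against 112, 207, 95.3 and 83.5 CPM in BM-MSC kidneys (log2 fold change 2.34, SE 0.47, edgeR adjusted p = 0.0035). Hbb-bs, a beta globin, had 644, 537, 467 and 1579.9 CPM in UC-MSC kidneys, against 181, 315, 172 and 169.8 CPM in BM-MSC kidneys (log2 fold change 1.94, SE 0.36, edgeR adjusted p = 0.0025). The globins have near-identical copies, so reads may be split between them. The part of adrenal, fat or blood RNA in the other differences was not tested.

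**Figure D4:**
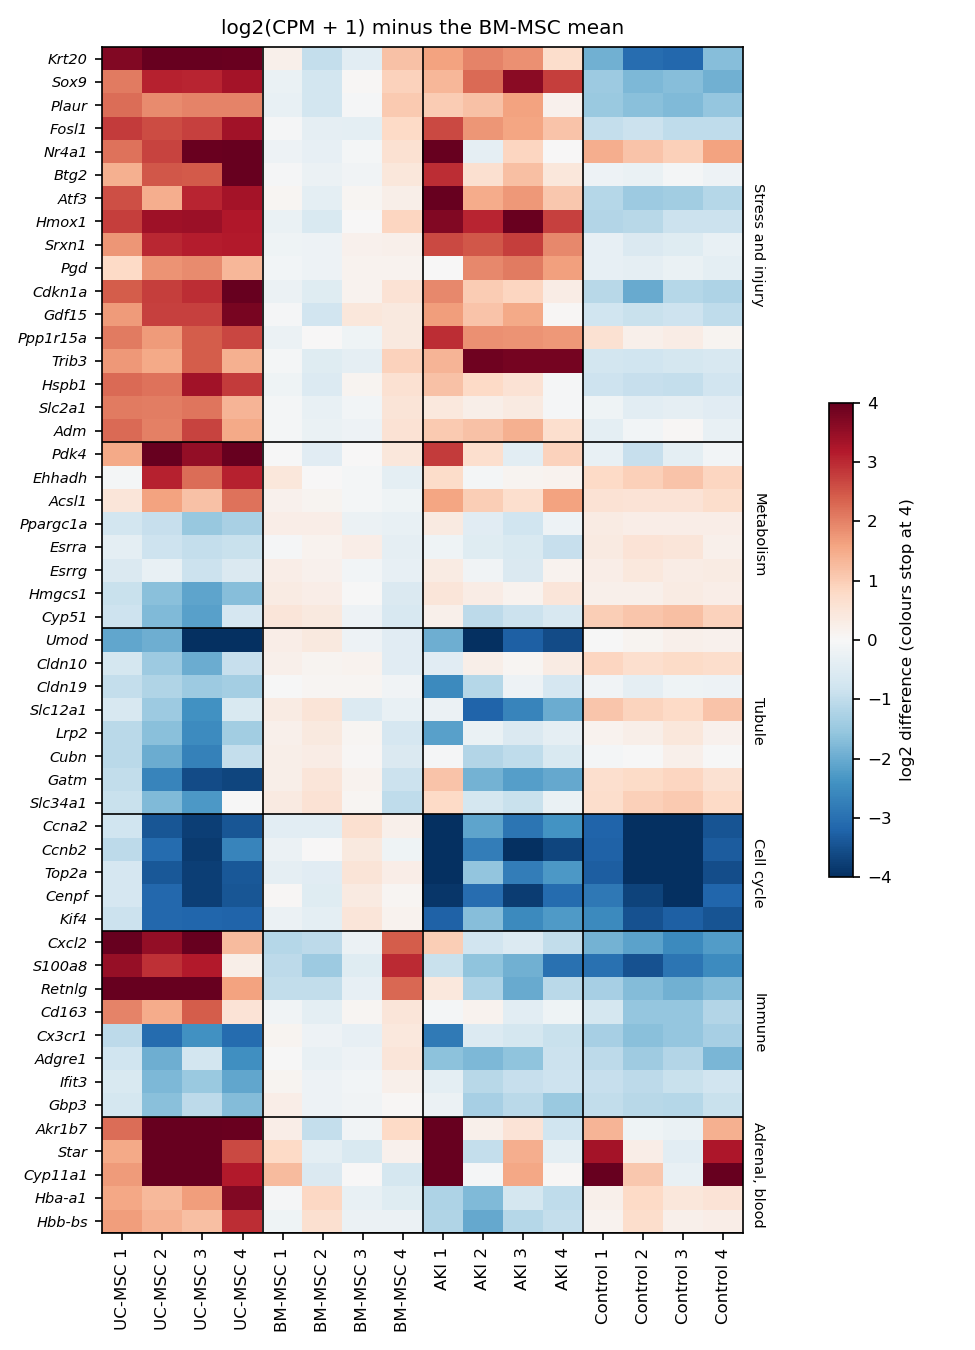
Columns are the 16 libraries and rows are genes in 6 groups, coloured by log2(CPM + 1) minus the mean over BM-MSC libraries, with colours stopping at 4. The stress genes are red in all UC-MSC columns, the cell cycle genes are blue in UC-MSC 2 to 4 and palest in UC-MSC 1, neutrophil genes are red in UC-MSC 1 to 3 and BM-MSC 4, and adrenal genes are strongest in UC-MSC 2 and 3.

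Other large changes stood apart from these groups. Fkbp1a, which encodes the FK506-binding protein FKBP12, had the largest fall by the rule for named genes, with 15.1, 13.1, 43.4 and 33.03 CPM in UC-MSC kidneys, against 182, 187, 242 and 249 CPM in BM-MSC kidneys (log2 fold change -3.04, SE 0.31, edgeR adjusted p = 0.0001). That rule requires separate ranges, which 13.5% of all genes tested had in this direction. Fkbp1a averaged 50.7 ± 7.03 CPM in AKI kidneys and 175 ± 7.73 CPM in Control kidneys (SD, n = 4 each). The gene has processed copies that could take up reads. B3gat2, a glucuronyltransferase, had 25.4, 9.72, 7.54 and 5.58 CPM in UC-MSC kidneys, against 64.5, 84.1, 81.8 and 38.7 CPM in BM-MSC kidneys (log2 fold change -2.46, SE 0.37, edgeR adjusted p = 0.0009). Depp1, a FOXO target of autophagy, had 58.2, 95.5, 110.2 and 173 CPM in UC-MSC kidneys, against 5.12, 8.81, 4.74 and 9.002 CPM in BM-MSC kidneys (log2 fold change 3.98, SE 0.52, edgeR adjusted p = 0.00037). Ptx3, a pentraxin of innate immunity, had 22.9, 10.6, 92.2 and 14.7 CPM in UC-MSC kidneys, against 1.01, 0.905, 1.24 and 3.78 CPM in BM-MSC kidneys (log2 fold change 4.31, SE 1.07, edgeR adjusted p = 0.011). Cxcl13, a B-cell chemokine, averaged 25.9 ± 27.6 CPM in UC-MSC kidneys and 1.64 ± 1.499 CPM in BM-MSC kidneys (log2 fold change 3.96, SE 0.75, edgeR adjusted p = 0.0028). Serpina3m, an acute phase serpin with close copies, averaged 29.5 ± 21.05 CPM in UC-MSC kidneys and 1.39 ± 1.35 CPM in BM-MSC kidneys (log2 fold change 4.38, SE 0.96, edgeR adjusted p = 0.0056). UC-MSC 3 was the highest library for Ptx3, Cxcl13 and Serpina3m. Col4a2, a chain of basement membrane collagen, had 594, 648, 825 and 791 CPM in UC-MSC kidneys, against 191, 222, 208 and 53.5 CPM in BM-MSC kidneys (log2 fold change 2.08, SE 0.36, edgeR adjusted p = 0.0018). Among 36 collagen genes 2 rose (5.56%) and 3 fell (8.33%), below the 10.0% and 10.4% of all genes tested. Of their fold changes 21 were negative, with a median of -0.34. The falls were 0 to 11 when 1 library was left out.

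Genes of mesenchymal stromal cells gave 1 rise among the 11 tested, with a median of -0.05. That share, 9.09%, was near the 10.0% of all genes tested. The rise was Nt5e, the ecto-nucleotidase CD73, which tubule cells also express, with 123, 209, 202 and 284 CPM in UC-MSC kidneys, against 82.5, 84.9, 90.98 and 77.9 CPM in BM-MSC kidneys (log2 fold change 1.28, SE 0.21, edgeR adjusted p = 0.0014). The counts are of mouse gene names, so human RNA of the injected cells was not analysed here. Of 16 genes of connexins, nanotubes and mitochondrial transfer 2 rose, Gjb2 and Rala, a share of 12.5%, near the 10.0% of all genes tested. Gjb2, connexin 26, had 58.9, 155, 109 and 199.7 CPM in UC-MSC kidneys, against 70.1, 67.01, 64.9 and 38.3 CPM in BM-MSC kidneys, with UC-MSC 1 within the BM-MSC range (log2 fold change 1.12, SE 0.28, edgeR adjusted p = 0.012). Rala, a GTPase of the exocyst, averaged 79.8 ± 9.07 CPM in UC-MSC kidneys and 61.2 ± 4.91 CPM in BM-MSC kidneys (log2 fold change 0.38, SE 0.12, edgeR adjusted p = 0.037). The adjusted p of Rala was above 0.05 in 11 of the 16 fits that left out 1 library, up to 0.115 without BM-MSC 2. Gja1, connexin 43, named in the series title, is not reported because its counts differ between the deposited tables.

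Clock and glucocorticoid response genes also moved. Among 18 clock genes 8 rose and 2 fell, Dbp and Hlf. The rises were 44.4% of the list, against 10.0% of all genes tested, and the falls 11.1%, near the 10.4% of all genes. But 2 rose without UC-MSC 4 or BM-MSC 2, 3 without UC-MSC 3, BM-MSC 1 or BM-MSC 3, and 4 without UC-MSC 2. The falls were 4 without AKI 1 and 1 without UC-MSC 2, 3 or 4 or BM-MSC 1, 2 or 3. Npas2, a partner of the clock protein BMAL1, had 5.04, 6.499, 8.61 and 59.4 CPM in UC-MSC kidneys, against 2.03, 2.83, 6.04 and 5.78 CPM in BM-MSC kidneys (log2 fold change 2.24, SE 0.64, edgeR adjusted p = 0.023), a rise set by UC-MSC 4, since the log2 fold change was 0.68 without it (adjusted p = 0.206). The adjusted p was 0.0718 without BM-MSC 1 and 0.0675 without BM-MSC 2. The hour of the day at harvest is not in the labels. Among 12 glucocorticoid response genes 7 rose and none fell, and 4 rose without UC-MSC 4, BM-MSC 3 or BM-MSC 4. Ddit4, an inhibitor of mTOR induced by glucocorticoids and by hypoxia, had 177, 190.1, 207 and 273 CPM in UC-MSC kidneys, against 33.4, 51.7, 36.4 and 73.3 CPM in BM-MSC kidneys (log2 fold change 2.12, SE 0.31, edgeR adjusted p = 0.00072).

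Set against the other groups, 6172 genes (37.1%) differed between UC-MSC and Control kidneys and 1483 (8.92%) between BM-MSC and Control kidneys in edgeR's test, the same 4 Control libraries serving both. Against AKI kidneys 6729 genes (40.5%) differed in UC-MSC kidneys and 5552 (33.4%) in BM-MSC kidneys. Endothelial genes summed to 869 to 1045 CPM in UC-MSC kidneys, 778 to 1158 CPM in BM-MSC kidneys, 153 to 477 CPM in AKI kidneys and 847 to 897 CPM in Control kidneys. The AKI libraries also stand in another joined block of the count table than the UC-MSC, BM-MSC and Control libraries, so handling and injury cannot be told apart there.

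The series also holds IRI libraries without MSC at 6, 24, 48 and 72 h after reperfusion. Their levels stand beside the therapy groups as a description, in CPM of the library total without TMM scaling. Summed cell cycle genes had medians of 268 in UC-MSC, 1367 in BM-MSC, 508 in AKI and 185 in Control kidneys, and of 1749, 337, 699 and 413 at 6, 24, 48 and 72 h. Umod had medians of 335 in UC-MSC, 2391 in BM-MSC, 181 in AKI and 2387 in Control kidneys, and of 1782, 307, 255 and 183 at the 4 times. For both, the BM-MSC median was nearest to that at 6 h among the 4 times, and the UC-MSC median to that at 24 h. For Umod the BM-MSC median was nearer still to that of Control kidneys. Other lists were placed otherwise. Summed genes of the first 2 proximal segments had medians of 10246 in UC-MSC, 17583 in BM-MSC, 12434 in AKI and 18166 in Control kidneys. They were 13747, 3627, 2012 and 1131 at the 4 times, so that UC-MSC kidneys too were nearest to 6 h among these. The UC-MSC median was nearer still to that of AKI kidneys, and the BM-MSC median to that of Control kidneys. Summed immediate early genes had medians of 2297 in UC-MSC and 590 in BM-MSC kidneys, and of 1016, 1647, 1165 and 896 at the 4 times. Among these times BM-MSC kidneys were nearest to 72 h, but they stood close to Control kidneys. After TMM scaling the medians were 553 in BM-MSC, 496 in Control and 771 in AKI kidneys. Fkbp1a was unlike any of the 4 times in UC-MSC kidneys, with a median of 21.9, against 229 in BM-MSC, 47.9 in AKI and 176 in Control kidneys and 315, 321, 209 and 162 at the 4 times. Krt20 in UC-MSC kidneys, with a median of 859, was above the medians of 122, 236, 58.3 and 31.8 at the 4 times. AKI libraries carry the 6 h label too, and their Umod and cell cycle medians stood apart from those of the IRI 6 h libraries. These differences were not tested.

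**Figure D5:**
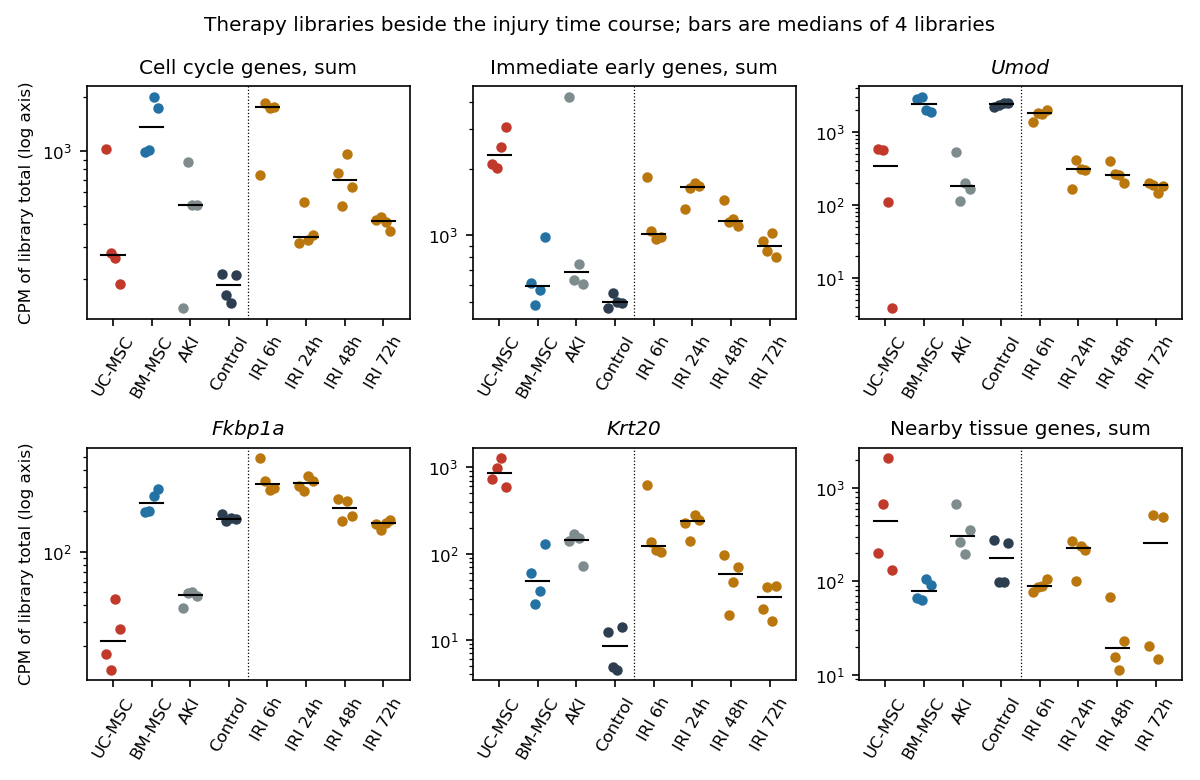
Levels in CPM of the library total on a log axis, for 2 lists and 3 genes and the summed genes of nearby tissues, by group, with points for the 4 libraries and bars for medians. Among the IRI times, the BM-MSC median is nearest to that at 6 h for cell cycle genes and Umod, but not for every list. For Umod it is nearer still to the Control median. Fkbp1a is lowest in UC-MSC and AKI kidneys.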

How the data were processed

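RNA of mouse kidney was sequenced in 40 libraries, 8 of them compared here. The deposited values are raw counts per gene that the authors made with HTSeq, per the submitters' processing notes, which also name DESeq2 and the builds GRCm39 and mm39; the aligner and the strand setting are not given in the sources used here. Reads of a gene and its antisense partner, and of near-identical copies, may be split or mixed. The count table is a join of blocks by gene name, which repeats rows of names with several IDs; repeated rows were collapsed. Left out were 85 gene names: 74 whose Control counts differed between the deposited therapy and temporal tables, 6 in one table alone, 4 that shared the Control counts of another name and 1 repeated with different counts. Of the 55866 names of the therapy table, 84 were among them, which leaves 55782. The cause was not tested.

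Libraries were grouped by the cell name in their labels. A quasi-likelihood model was fitted with edgeR 4.0.16 in R 4.3.3 on 16 libraries (UC-MSC, BM-MSC, AKI, Control, 4 each), with TMM scaling and filterByExpr, which left 16623 genes, and Benjamini-Hochberg adjustment at 0.05. DESeq2 1.42.0 and other settings were tried as alternatives. On simulated counts with 100 genes changed 2-fold and 100 changed 4-fold, the test called 42% and 87% of them, with 3 false calls. The simulated counts were drawn independently, with far fewer changed genes than were called here and no library that shifted many genes together. These rates therefore cannot be carried over to the real counts. Depth, from 12949029 counts per library, limits genes of few counts, and intervals of single libraries were not needed because every comparison has replicates.

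Genes named are the 15 largest rises and falls among the called genes whose ranges are separate and whose mean log2 CPM is 2 or more, up to 4 called and 2 uncalled members of each list, and a set of genes of kidney injury and of the series title; other names are members that were called, and Ctrb1 was chosen after its values were seen. A few genes are not reported here and are not counted in the lists. The members and lists were chosen with earlier results of these data known. Separate ranges of the 15 largest rises and falls follow from the rule and are no further support. Promoters are RefSeq sequences of GRCm38.p6, another build than that of the counts, and were matched by gene symbol; no coordinates were carried between builds.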

Additional observations from a re-analysis of the deposited data

Results flagged for a closer look

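In 208 groups of 4 libraries whose values the text uses, 30 had 1 library whose gap to the nearest of the others took up most of the group's range. The cutoff gives about 1 in 20 for independent groups of normally distributed values. These groups are mostly CPM of chosen genes, many of which move together, so 30 of 208 cannot be set against that rate. BM-MSC 4 was that library in 11 groups, UC-MSC 1 in 7, UC-MSC 4 in 6, UC-MSC 3 in 4 and BM-MSC 2 in 2.

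BM-MSC 4 was high for inflammation and stress genes. Among its group it had the highest level of S100a8 (106 CPM), Retnlg (18.8 CPM), Ngp (0.513 CPM), Cxcl2 (30.3 CPM) and Ccl3 (1.96 CPM). It was also highest for Nfkbia (61.5 CPM), Ptx3 (3.78 CPM), Adm (14.5 CPM) and Chac1 (4.01 CPM). It was lowest for Cldn10 (88.2 CPM) and Gjb2 (38.3 CPM).

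UC-MSC 1 was high for genes of dividing cells: Ccna2 stood at 36.7 CPM, Top2a at 77.4 CPM, Kif4 at 12.6 CPM, Shcbp1 at 7.73 CPM and Rrm2 at 93.1 CPM. It was also highest for Tfb1m (5.21 CPM), and lowest for Srxn1 (396 CPM).

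UC-MSC 4 was highest for Cdkn1a (1187 CPM), Npas2 (59.4 CPM), Slc25a22 (975 CPM) and the globins Hba-a1 (1515 CPM) and Hbb-bs (1580 CPM). It was lowest for Rala (66.2 CPM). UC-MSC 3 was highest for Mrap (109 CPM), Lep (77.5 CPM), Ptx3 (92.2 CPM) and Serpina3m (61.1 CPM). BM-MSC 2 was highest for Hbb-bs (315 CPM) and lowest for Slc25a22 (19.9 CPM). The causes were not tested.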

How the results depend on the processing

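The number of genes called between UC-MSC and BM-MSC kidneys, 3402 with all 16 libraries, was 5546 without the AKI libraries, and 1947 to 5390 when 1 library was left out. DESeq2 called 4347, DESeq2's size factors in edgeR gave 3427, no filter on low counts 2809, the 8 MSC libraries alone 3399, robust dispersions 3404 and keeping the names left out 3456. The share of calls that were higher in UC-MSC kidneys ran from 45.8% to 55.2% over these settings. Genes called by at least 2-fold, 1674 in all, numbered 1005 to 2359 when 1 library was left out. The difference in mitochondrial rRNA share (0.184 percentage points) was 0.162 to 0.229 when 1 library was left out, the highest without UC-MSC 2, with an exact permutation p of 0.0286. The difference in mitochondrial mRNA share was -0.0474 to 0.207, the lowest without UC-MSC 4. Over the fits that left out 1 library, the log2 fold change ran from -0.41 to 0.00398 for Clu and from -0.17 to 0.17 for Atp5b.

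Of 182 genes named by the rule and called, 117 were called in each of the 16 fits that left out 1 library, 65 were lost in at least 1 of them, 31 were lost in some other setting, and 0 turned sign in edgeR or DESeq2. Replicate numbers are shared by the groups, and the labels do not say whether they pair libraries. The correlation of same-numbered libraries' deviations from their group means was -0.19, -0.02, -0.05 and -0.50. These values cannot decide the question, because deviations within a group depend on one another. A fit with the replicate number as a block called 2975 genes and lost 17 of the 182.

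Limits remain. The labels used here give no harvest time, dose or donor for the MSC groups, and 4 libraries a group that differ in neutrophil, adrenal and blood genes decide many calls. Genes of few counts, such as Ngp and Ccl3, are set by few reads. Havcr1, Lcn2, Gja1, Il6 and the other names left out are not reported; when kept, 82 of them were tested, 11 of which were higher and 12 lower in UC-MSC kidneys.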
